A study of Homo sapiens with 12 samples.

Results

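The genes described here were the zinc finger genes of human chromosome 19: every gene of the deposited tables with a symbol made of ZNF, a number and at most 1 letter, located on chromosome 19. There were 164 of them among 10976 genes, beside 174 ZNF genes of the same naming pattern on other chromosomes and 596 other genes of chromosome 19. Proteins with C2H2 zinc fingers bind DNA through tandem fingers, each held together by a zinc ion and contacting a few bases, and chromosome 19 carries long tandem arrays of such genes that arose by repeated duplication. Many of these proteins begin with a KRAB domain, which recruits TRIM28 (KAP1) and, through it, the histone methyltransferase SETDB1, so that chromatin at the bound site is silenced. Transposable elements are well-known targets: ZNF91 acts on SVA elements and ZNF93 on LINE-1 elements, and the family is active in pluripotent cells and in the developing brain.

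The RNA came from cerebral organoids (COs), three-dimensional neural tissue grown from H1, an established human embryonic stem cell (ESC) line. Unedited H1 (WT) and 2 clones in which c-JUN had been targeted with CRISPR/Cas9 (KO#2 and KO#10) were sampled at day 12 and at day 24, with 2 libraries for each line and day and 3 to 4 COs pooled per library. All 3 lines were induced in the same way, each KO line is 1 clone, and KO below means both clones together, 4 libraries per day against 2 of WT. The deposited values are whole-number normalized scores with a median of 17 and a maximum of 5585 in each of the 12 libraries; the read depth behind them is unknown, so their number limits the precision.

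Some facts of the libraries bear on every comparison. The transcript of the gene targeted, *JUN*, was scored higher in the KO clones than in WT: 13 to 19 beside 4 and 8 at day 12, and 29 to 39 beside 13 and 15 at day 24. These scores do not check the edit, and KO and WT are used below as the labels give them. The organoids also differed in their markers. At day 24 the summed score of 7 pluripotency genes (*POU5F1*, *NANOG* and others) was 439 to 882 in WT and 38 to 60 in KO, that of 6 listed endoderm and yolk sac genes (*AFP*, *APOA1* and others) was 6802 to 7048 in WT and 33 to 1206 in KO, and that of 10 neuronal genes (*DCX*, *STMN2* and others) was 182 to 325 in WT and 377 to 1990 in KO. At day 12 the pluripotency sums were 814 and 1032 in WT and 460 to 522 in KO, with all 6 genes tested lower and 3 called lower, the neuronal sums were 181 to 270 in WT and 269 to 358 in KO, and the endoderm sums reached at most 20 in any library, with *AFP*, *APOA1*, *APOB*, *TTR*, *SERPINA1* and *FGB* each at 0 in at least 1 library of the series. KO#10 replicate 1 of day 24 stood apart from the other 3 KO libraries of that day. Its neuronal sum was 377 against 1364 to 1990, its endoderm sum 1206 against 33 to 85 and its sum over 5 mesenchyme genes (*COL3A1*, *LUM* and others) 2863 against 131 to 164, where WT had 2429 and 2057. Results that rest on it are also given without it. The part of these cell types in the zinc finger results was not tested, and in bulk RNA fewer cells of a type and less RNA per cell cannot be told apart.

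The 164 genes lay in 15 groups along the chromosome when a gap of over 1 Mb between gene starts opened a new group, and 8 of these held 5 or more genes that entered the comparisons of days. In order, these ran from *ZNF557* to *ZNF846* (12 genes), *ZNF627* to *ZNF791* (13 genes), *ZNF101* to *ZNF43* (20 genes), *ZNF730* to *ZNF254* (5 genes), *ZNF565* to *ZNF573* (17 genes), *ZNF576* to *ZNF235* (12 genes), *ZNF577* to *ZNF331* (28 genes) and *ZNF579* to *ZNF446* (48 genes). Of the 164, 163 are annotated as protein coding and *ZNF788P* as a pseudogene. The longest open reading frame of each gene's transcript held between 0 and 31 C2H2 fingers with a median of 12. Of these frames 131 had a KRAB-like run of residues ahead of the fingers, by a pattern that can miss a KRAB domain. Because these genes are duplicates, reads could be shared: for 7 of them over 50% of the 100-base windows of the transcript also occurred in another zinc finger or chromosome 19 transcript, so that their scores are uncertain. In addition 78 overlapped another annotated gene on the same strand and 90 one on the opposite strand.

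The family resemblance reaches into the promoters. RefSeq promoter windows (GRCh38.p14, from 250 bases before to 50 after the transcription start) were found for 147 of the 164 genes, 184 windows in all. The windows of the *ZNF101* to *ZNF43* cluster stood out by a repeated CCAAT box, the element bound by NF-Y in many promoters, here searched as CCAATCA on both strands. It occurred in 17 of the 18 windows of this cluster (94.4%), against 16.3% of the 166 windows of the other chromosome 19 zinc finger genes, 14.9% of those of zinc finger genes elsewhere and 6.95% of all 35116 human windows. The box was not particular to this cluster. Every gene with a window in the *ZNF627* to *ZNF791* and *ZNF730* to *ZNF254* clusters also had it. A pair of boxes was present in 12 of the 18 windows (66.7%), against 2.41% of the windows of the other chromosome 19 zinc finger genes. Pairs were present in 8.21% of the windows of zinc finger genes elsewhere and in 1.10% of all windows. The 4 promoters of this cluster shown first are those of genes whose fall with day is described further on, with the CCAATCA boxes in capitals. The window of *ZNF428*, which rose in KO, is shown as an example without the box, like most windows of these genes (44 of 184 had it). *ZNF331*, which fell with day, had no box either. *ZNF737*, in the cluster and with a pair of boxes, scored higher at day 24 in WT (12 and 11, then 18 and 14). In KO it scored 9 to 15, then 13 to 24. Whether the boxes bear on the change with day was not tested.
ZNF93: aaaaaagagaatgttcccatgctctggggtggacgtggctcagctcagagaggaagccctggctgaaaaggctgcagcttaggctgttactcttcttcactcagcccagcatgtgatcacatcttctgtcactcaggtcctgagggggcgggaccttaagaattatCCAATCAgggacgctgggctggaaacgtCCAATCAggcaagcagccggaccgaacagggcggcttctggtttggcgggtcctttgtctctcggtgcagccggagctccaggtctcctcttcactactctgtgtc
ZNF90: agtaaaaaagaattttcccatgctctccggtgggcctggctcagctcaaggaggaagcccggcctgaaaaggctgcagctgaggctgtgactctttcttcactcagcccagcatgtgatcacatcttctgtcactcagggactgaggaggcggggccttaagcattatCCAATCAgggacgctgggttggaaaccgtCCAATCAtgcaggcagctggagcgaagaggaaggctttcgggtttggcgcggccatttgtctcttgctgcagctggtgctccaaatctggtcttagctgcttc
ZNF66: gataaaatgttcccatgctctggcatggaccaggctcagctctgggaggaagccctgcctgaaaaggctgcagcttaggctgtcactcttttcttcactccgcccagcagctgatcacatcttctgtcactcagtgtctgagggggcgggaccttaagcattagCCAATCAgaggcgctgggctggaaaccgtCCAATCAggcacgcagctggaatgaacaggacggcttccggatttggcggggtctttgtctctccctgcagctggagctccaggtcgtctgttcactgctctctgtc
ZNF43: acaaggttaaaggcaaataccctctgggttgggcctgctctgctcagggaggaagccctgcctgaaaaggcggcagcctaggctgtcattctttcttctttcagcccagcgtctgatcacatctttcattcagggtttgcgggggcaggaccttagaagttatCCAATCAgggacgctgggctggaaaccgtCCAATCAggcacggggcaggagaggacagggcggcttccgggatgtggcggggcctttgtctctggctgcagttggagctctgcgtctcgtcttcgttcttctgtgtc
ZNF428: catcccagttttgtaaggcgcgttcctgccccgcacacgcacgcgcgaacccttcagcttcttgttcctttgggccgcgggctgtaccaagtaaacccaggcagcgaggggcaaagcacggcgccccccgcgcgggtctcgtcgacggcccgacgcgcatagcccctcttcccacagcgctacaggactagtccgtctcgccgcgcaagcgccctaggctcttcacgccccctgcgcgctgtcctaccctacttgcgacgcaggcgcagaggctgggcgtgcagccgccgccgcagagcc
These windows lie on chromosome 19 at chr19:19900696-19900995 on the plus strand (*ZNF93*), chr19:20077750-20078049 on the plus strand (*ZNF90*), chr19:20776054-20776353 on the plus strand (*ZNF66*), chr19:21836133-21836432 on the minus strand (*ZNF43*) and chr19:43619580-43619879 on the minus strand (*ZNF428*). In the first 4 the boxes began 82 to 87 and 53 to 58 bases before the start and were 28 bases apart, start to start, in *ZNF93* and 29 in *ZNF90*, *ZNF66* and *ZNF43*. The same spacing of 28 or 29 bases held in each of the 12 windows of the cluster with 2 boxes, and also in *ZNF724* and *ZNF675* of the neighbouring *ZNF730* to *ZNF254* cluster. The windows of *ZNF93* and *ZNF66* were 85.9% identical over the aligned columns, those of *ZNF90* and *ZNF43* 75.6%, and *ZNF428* reached at most 50.4% with any of the 4.

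c-JUN acts through AP-1 sites and, with ATF partners, through the site TGACGTCA. AP-1 sites were searched as TGANTCA with any base at N, a wider pattern, so that not every match is an AP-1 site. TGANTCA was present in 13 of the 184 windows (7.07%), against 4.76% of the windows of all genes in the tables and 7.71% of all human windows, and in none of the 18 windows of the *ZNF101* to *ZNF43* cluster. TGACGTCA was present in 9 windows (4.89%), against 3.03% and 1.85%. An ETS-like CCGGAAG was the most widespread of the motifs searched, in 84 windows (45.7%) against 17.0% and 10.3%. It was also frequent in the windows of zinc finger genes on other chromosomes (33.3%). In those windows TGANTCA was present in 3.59% and TGACGTCA in 3.08%. These are matches of letters only, and the motifs were chosen after the sequences had been seen.

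The first question of the design was how WT COs changed between day 12 and day 24. The zinc finger scores were lower at day 24 in every line. The 164 genes summed to 2974 and 2641 in WT replicates 1 and 2 at day 12 and to 2122 and 2179 at day 24. In KO#2 the sums were 2799 and 2536 at day 12 and 2383 and 2337 at day 24. In KO#10 they were 2866 and 2503 at day 12 and 1975 and 2297 at day 24. The 6 sums at day 24 were thus all below the 6 at day 12. The total over all genes lay between 473637 and 483149 in every library. The scores have nearly the same distribution in every library, so changes are relative to the other genes and this total is no separate check. The ZNF genes of other chromosomes also had lower sums at day 24, from 4098 and 3932 to 2925 and 2830 in WT, and from a range of 3818 to 4229 to a range of 3235 to 3743 in KO.

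**Figure D1:**
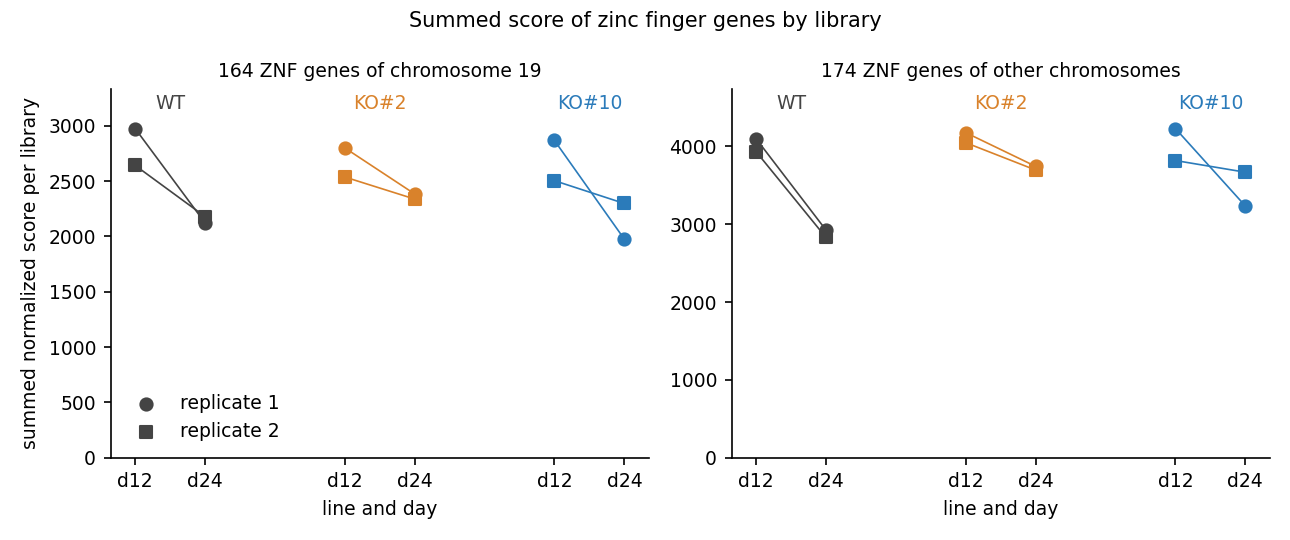
Summed normalized score of the 164 chromosome 19 ZNF genes (left) and the 174 ZNF genes of other chromosomes (right) in each library. Lines join libraries of the same line and replicate number; the chromosome 19 sums lie between 2503 and 2974 at day 12 and between 1975 and 2383 at day 24.

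The size of the fall differed between the 2 replicate sets. With libraries of the same line and replicate number compared, the median change of the 164 genes from day 12 to day 24, on the log2(score + 1) scale, was -0.38 in WT, -0.28 in KO#2 and -0.46 in KO#10 for replicate 1. For replicate 2 it was -0.19, -0.13 and -0.14, while the median over all genes was between 0 and 0.03 in every pair. The sums moved likewise: the day 24 sum was 0.714, 0.851 and 0.689 of the day 12 sum in replicate 1 and 0.825, 0.922 and 0.918 in replicate 2. Most single genes went the same way, with 123 of 164 lower in WT replicate 1, 104 in WT replicate 2, 108 and 92 in KO#2 and 129 and 92 in KO#10. Part of the gap lay at day 12, where the replicate 2 library had the lower sum in each line.

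Genes were tested with limma on log2(score + 1) when they reached a score of 10 in at least 2 libraries, and called when the Benjamini-Hochberg adjusted *p* over all genes tested was below 0.05 and the change at least 2-fold. Of the 164, 147 passed this filter for the comparison of days. In WT 16 of the 147 were called lower at day 24, where 7.94% of all 9952 genes tested were, and none was called higher, where 7.23% were. By adjusted *p* below 0.05 alone, 33 were lower (15.8% of all genes) and 1 was higher (13.6%). In KO 5 were called lower (5.59% of all genes) and 2 higher (5.89%), and by adjusted *p* alone 46 were lower (19%) and 8 higher (18.8%). Without KO#10 day 24 replicate 1, 4 were called lower and 2 higher in KO, and the median was -0.24. In that run 1141 of all 9896 genes tested were called in either direction. The median change of the genes tested was -0.29 in WT and -0.24 in KO, beside 0.02 and 0.01 for all genes tested. With no filter on low values, so that all 164 genes were in, the medians were -0.31 and -0.22, and 121 of 164 were lower in WT and 121 in KO. ZNF genes on other chromosomes had medians of -0.30 in WT and -0.12 in KO, and other chromosome 19 genes 0.05 and -0.03. These medians and counts are descriptions of chosen genes and carry no test of their own.

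**Figure D2:**
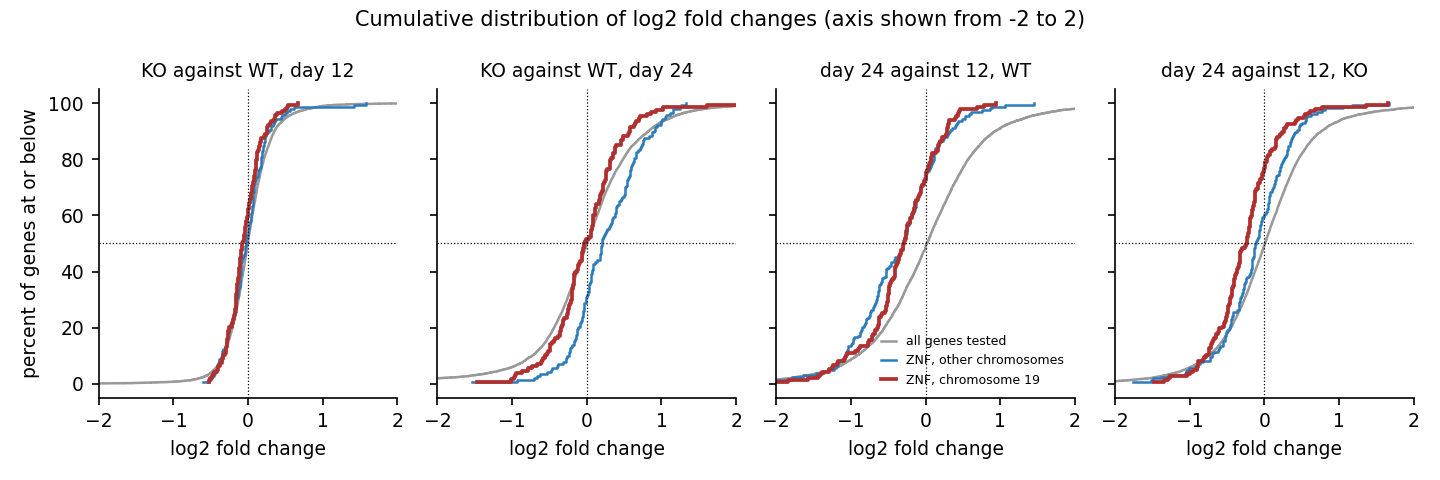
Percent of genes (vertical axis) at or below each log2 fold change (horizontal axis, drawn from -2 to 2) in the 4 comparisons, for all genes tested, ZNF genes of other chromosomes and chromosome 19 ZNF genes. In the comparisons of days the chromosome 19 curve crosses 50 percent left of 0, at -0.29 in WT and -0.24 in KO, and in the comparisons of KO with WT it crosses near 0, at -0.08 at day 12 and -0.03 at day 24.

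Long transcripts moved with the day as well. With all genes tested cut into 5 equal bins of transcript length, the median change in WT was 0.40 in the bin of the shortest and -0.36 in that of the longest, and in KO 0.24 and -0.18. The transcripts of the 164 genes had a median length of 3910 bases against 3476 for all genes. Within the middle bin, 2865 to 4073 bases, the 36 zinc finger genes had a median of -0.27 in WT and -0.33 in KO, where the other genes of that bin had 0.00 and -0.03. After a correction for transcript length in each library the medians of the 147 genes were -0.24 in WT and -0.20 in KO, with 14 and 6 called lower. Of all 9952 genes tested, 1228 in WT and 1109 in KO were then called in either direction.

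In 26 of the 147 genes the 6 day 24 scores were all below the 6 day 12 scores, as in 8.51% of all genes tested, and in none were they all above, as in 7.31%. The 26 included 6 genes of the *ZNF101* to *ZNF43* cluster (*ZNF714*, *ZNF93*, *ZNF90*, *ZNF43*, *ZNF493* and *ZNF253*), 5 of the *ZNF577* to *ZNF331* cluster and 8 of the *ZNF579* to *ZNF446* cluster.

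*ZNF93*, the LINE-1 repressor, scored 26 and 30 in WT at day 12 and 13 and 15 at day 24. In KO it scored 19 to 23 at day 12 and 8 to 12 at day 24. Neither genotype overlapped between days, and the KO scores were below the WT scores at both. The change was -1.04 in KO (SE 0.135, limma adjusted *p* = 0.000188) and -0.95 in WT (SE 0.190, adjusted *p* = 0.00439), the latter just under 2-fold. The KO change was also under 2-fold, and so not called, with a pseudocount of 5, after a correction for gene span, and without KO#10 day 24 replicate 1 or KO#2 day 12 replicate 2 (log2 -0.82 at its smallest, adjusted *p* at most 0.000905). *ZNF90*, its neighbour, scored 35 and 38 in WT and 26 to 37 in KO at day 12. At day 24 it scored 18 and 21 in WT and 11 to 15 in KO, so that all day 24 libraries were lower. It fell by 1.26 (log2) in KO (adjusted *p* = 6.28e-05) and by 0.87 in WT (limma adjusted *p* = 0.00711). *ZNF43*, at the far end of the cluster, scored 60 and 52 in WT and 49 to 56 in KO at day 12, and 24 and 22 in WT and 28 to 42 in KO at day 24. Its fall was larger than 2-fold in WT (log2 -1.25, adjusted *p* = 0.00115) and smaller in KO (-0.74, adjusted *p* = 0.00147), and the difference between the genotypes did not pass the test (log2 0.51, adjusted *p* = 0.23). *ZNF66* scored 29 and 20 in WT at day 12 and 6 in both WT libraries at day 24, and 11 to 30 and 4 to 14 in KO, where the days overlapped. It was called lower in both genotypes, with log2 changes of -1.84 in WT (adjusted *p* = 0.0142) and -1.34 in KO (adjusted *p* = 0.00863), but the WT call was lost without WT day 12 replicate 1 or either WT day 24 library (adjusted *p* 0.0571 to 0.104).

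*ZNF331*, an imprinted gene at the end of its cluster, was the other gene called lower in both genotypes. It scored 23 and 27 in WT and 17 to 28 in KO at day 12, against 10 and 11 in WT and 8 to 10 in KO at day 24, with no overlap. The change was -1.17 in WT (SE 0.215, adjusted *p* = 0.00288) and -1.29 in KO (SE 0.152, adjusted *p* = 0.000105), and the call was kept under every alternative run in KO and lost with a pseudocount of 5 in WT. *ZNF850* was called lower in KO, with 13 to 16 at day 12 and 3 to 6 at day 24 (log2 -1.47, adjusted *p* = 0.000279). In WT it scored 16 and 26 at day 12 and 12 and 16 at day 24 (log2 -0.53, adjusted *p* = 0.18), and the difference between genotypes did not pass the test (log2 -0.95, adjusted *p* = 0.151).

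The largest fitted change of any chromosome 19 zinc finger gene tested was that of *ZNF471* in WT. It scored 12 and 11 at day 12 and 1 in both libraries at day 24, while KO#2 went from 15 and 10 to 10 and 6 and KO#10 from 13 and 12 to 4 and 6. The fitted change was -2.64 in WT (SE 0.324, adjusted *p* = 0.00041) and -0.89 in KO (adjusted *p* = 0.00968), and it depends on the pseudocount at such low scores, from -1.46 to -3.40 in WT over the alternatives. The difference between genotypes missed the threshold (log2 1.75, SE 0.397, adjusted *p* = 0.053) and passed it with the replicate number as a block (adjusted *p* = 0.043, and 0.00575 to 0.206 over all alternatives).

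The other WT calls with the largest changes were *ZNF69*, *ZNF552*, *ZNF493*, *ZNF665*, *ZNF587B* and *ZNF431*, with log2 changes of -1.29 to -1.58. *ZNF69* scored 36 and 23 in WT at day 12 and 9 in both libraries at day 24, and 20 to 39 and 12 to 19 in KO. *ZNF493* scored 32 and 27, then 12 and 9 in WT, and 26 to 31, then 12 to 22 in KO. *ZNF665* scored 16 and 13, then 6 and 4 in WT, and 14 to 20, then 9 to 11 in KO. All 6 were also lower in KO by adjusted *p* below 0.05, by less than 2-fold (log2 -0.74 to -0.89). In WT, the calls of *ZNF69*, *ZNF552*, *ZNF587B* and *ZNF431* were lost without WT day 12 replicate 1 (adjusted *p* 0.0619 to 0.11), and that of *ZNF431* also without either WT day 24 library (0.0735 and 0.0583). WT day 12 replicate 1 was the library with the highest zinc finger sum, and without it 8 genes were called in place of 16. *ZNF814*, among the 5 highest-scoring of the 164, scored 80 and 58, then 26 and 30 in WT and 61 to 76, then 28 to 42 in KO. Its change was -1.26 in WT (adjusted *p* = 0.00185) and -0.90 in KO (adjusted *p* = 0.000868), and 18.1% of its 100-base windows occurred in another transcript.

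**Figure D3:**
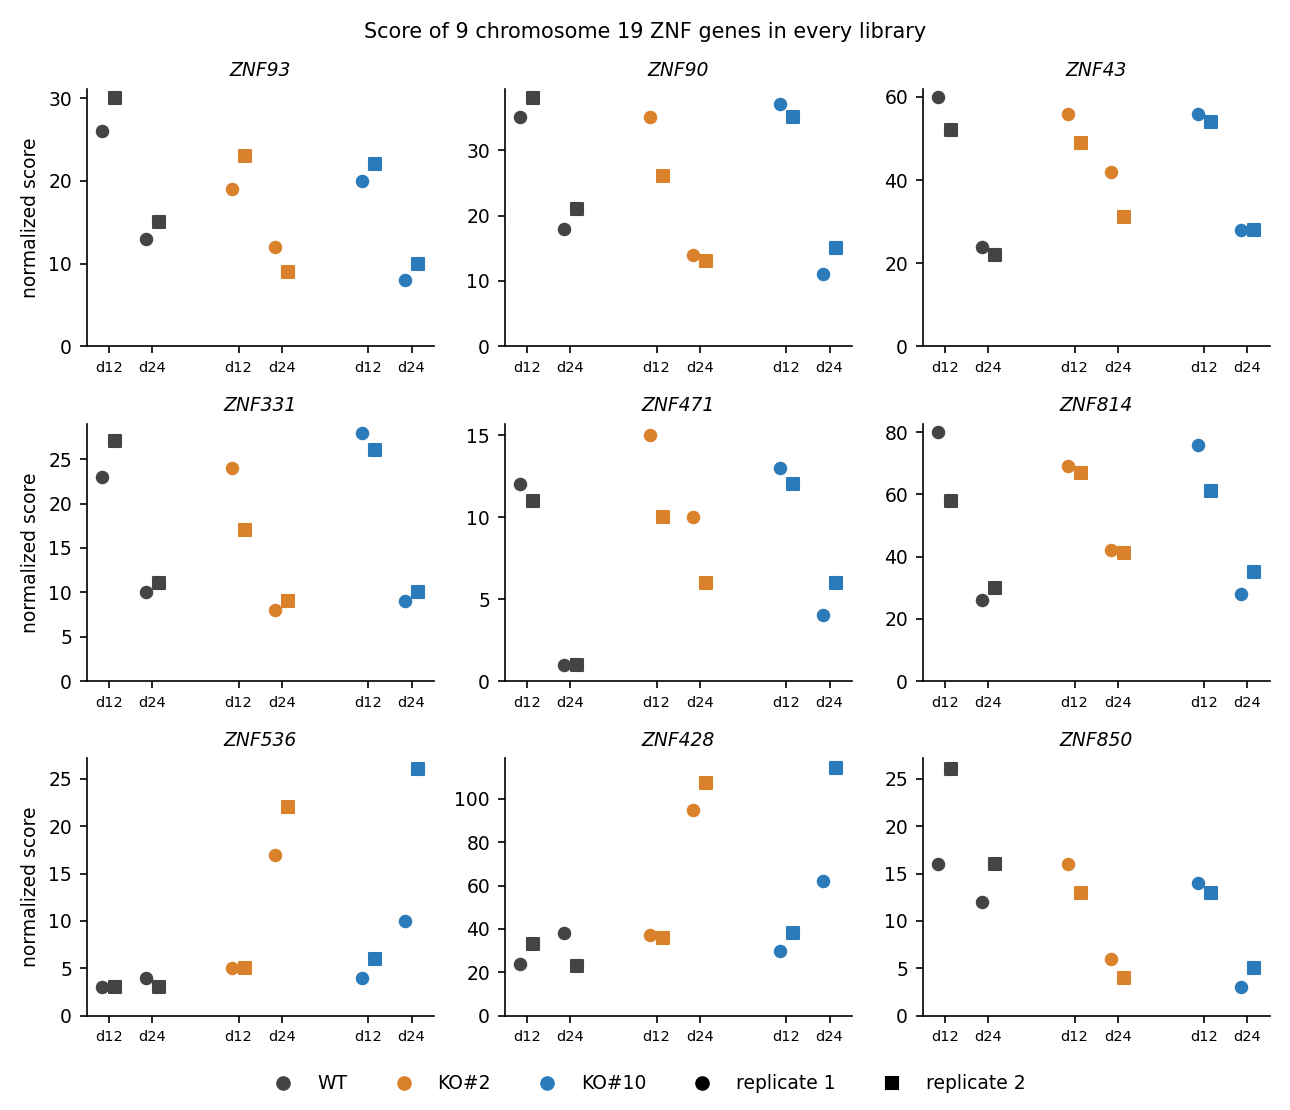
Normalized score (vertical axis, from 0) of 9 chromosome 19 ZNF genes in each library, by line and day (d12, d24) and replicate number. *ZNF93*, *ZNF90*, *ZNF43*, *ZNF331* and *ZNF814* are lower in all 6 day 24 libraries, *ZNF536* and *ZNF428* are raised in the 4 KO day 24 libraries alone, and *ZNF850* is lowest there.

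Few zinc finger genes rose with the day. In WT *ZNF415* rose from 8 in both libraries to 14 and 13 (log2 0.69, adjusted *p* = 0.0469), under 2-fold, while in KO it scored 8 to 14 and 9 to 13. *ZNF585A*, from 6 and 5 to 10 and 13, and *ZNF358*, from 20 and 24 to 29 and 31, were the next in order and did not pass the test (adjusted *p* = 0.055 and 0.057). *ZNF585A* reached 10 in the WT libraries of day 24 alone, so it passed the filter only through the group where it was high. In KO the 2 genes called higher were *ZNF536* and *ZNF428*, described below with the comparison of genotypes. *ZNF627* rose in KO from a range of 18 to 22 to one of 25 to 34 (log2 0.45, adjusted *p* = 0.0329), less than 2-fold.

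Several genes with a known role did not change 2-fold with the day. *ZNF91*, the SVA repressor, scored 39 and 26 at day 12 and 35 and 33 at day 24 in WT, and 33 to 40 and 37 to 55 in KO (log2 0.09 and 0.30, adjusted *p* = 0.779 and 0.141). Its days overlapped in both genotypes. *ZNF274*, which binds the ends of other zinc finger genes and brings SETDB1 to them, scored 24 and 22, then 17 and 15 in WT (log2 -0.50, adjusted *p* = 0.0261). In KO it scored 20 to 23, then 18 to 21 (log2 -0.15, adjusted *p* = 0.267). *ZNF808*, known for its part in pancreas development, scored 29 and 19, then 16 and 17 in WT (adjusted *p* = 0.114) and 18 to 20, then 10 to 16 in KO (log2 -0.51, adjusted *p* = 0.0236). *ZNF473*, a factor of histone pre-mRNA processing, scored 11 to 17 at day 12 and 11 to 14 at day 24, and neither change passed the test (adjusted *p* = 0.316 in WT and 0.673 in KO). *ZNF146*, a protein made almost entirely of fingers, scored 78 and 48, then 47 and 46 in WT, and 42 to 61, then 44 to 54 in KO (adjusted *p* = 0.231 and 0.894). *ZNF154* and *ZNF671*, whose promoters are often methylated in tumours, scored 14 and 12, then 7 and 8, and 11 and 12, then 10 and 7 in WT (log2 -0.72 and -0.41, adjusted *p* = 0.0268 and 0.186), and overlapped between days in KO. *ZNF568* stayed between 3 and 8 in every library and did not pass the filter on low scores. *ZNF544* and *ZNF875*, also among the 5 highest-scoring, fell from day 12 to day 24 within KO by less than 2-fold (log2 -0.72 and -0.51, limma adjusted *p* = 0.00207 and 0.00517). In WT *ZNF544* scored 64 and 54, then 42 and 40, and *ZNF875* 42 and 50, then 28 and 30.

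By position, the fall with day was seen in most clusters and was uneven. Over all genes of a cluster, with no filter, the *ZNF101* to *ZNF43* cluster had a median of -0.41 in WT and -0.58 in KO, with 18 of 20 genes lower in each. In this cluster 4 of the 19 genes tested were called lower in WT and 3 in KO, and 7 and 12 were lower by adjusted *p* alone, where 7.94% and 5.59% of all genes tested were called lower and 15.8% and 19% were lower by adjusted *p* alone. Its median was lower at day 24 in each of the 6 pairs of line and replicate number, at -0.57 and -0.13 in WT. The same medians were -0.43 and -0.22 for KO#2 and -0.93 and -0.36 for KO#10. The *ZNF565* to *ZNF573* cluster had -0.42 in WT and -0.21 in KO, with 14 of 17 lower in each. The *ZNF579* to *ZNF446* cluster near the end of the long arm, the largest with 48 genes, had -0.37 and -0.19, with 38 and 37 lower. The *ZNF577* to *ZNF331* cluster had -0.10 in WT and -0.38 in KO, with 16 and 21 of 28 lower. The small *ZNF730* to *ZNF254* cluster had -0.15 and -0.32. The *ZNF557* to *ZNF846* and *ZNF627* to *ZNF791* clusters lay between, from -0.19 to -0.26. The *ZNF576* to *ZNF235* cluster had 0.05 in KO and -0.34 in WT, but only 6 of its 12 genes passed the filter and these had a WT median of 0.04, so that its direction in WT depended on genes with low scores. Differences between clusters were not tested.

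**Figure D4:**
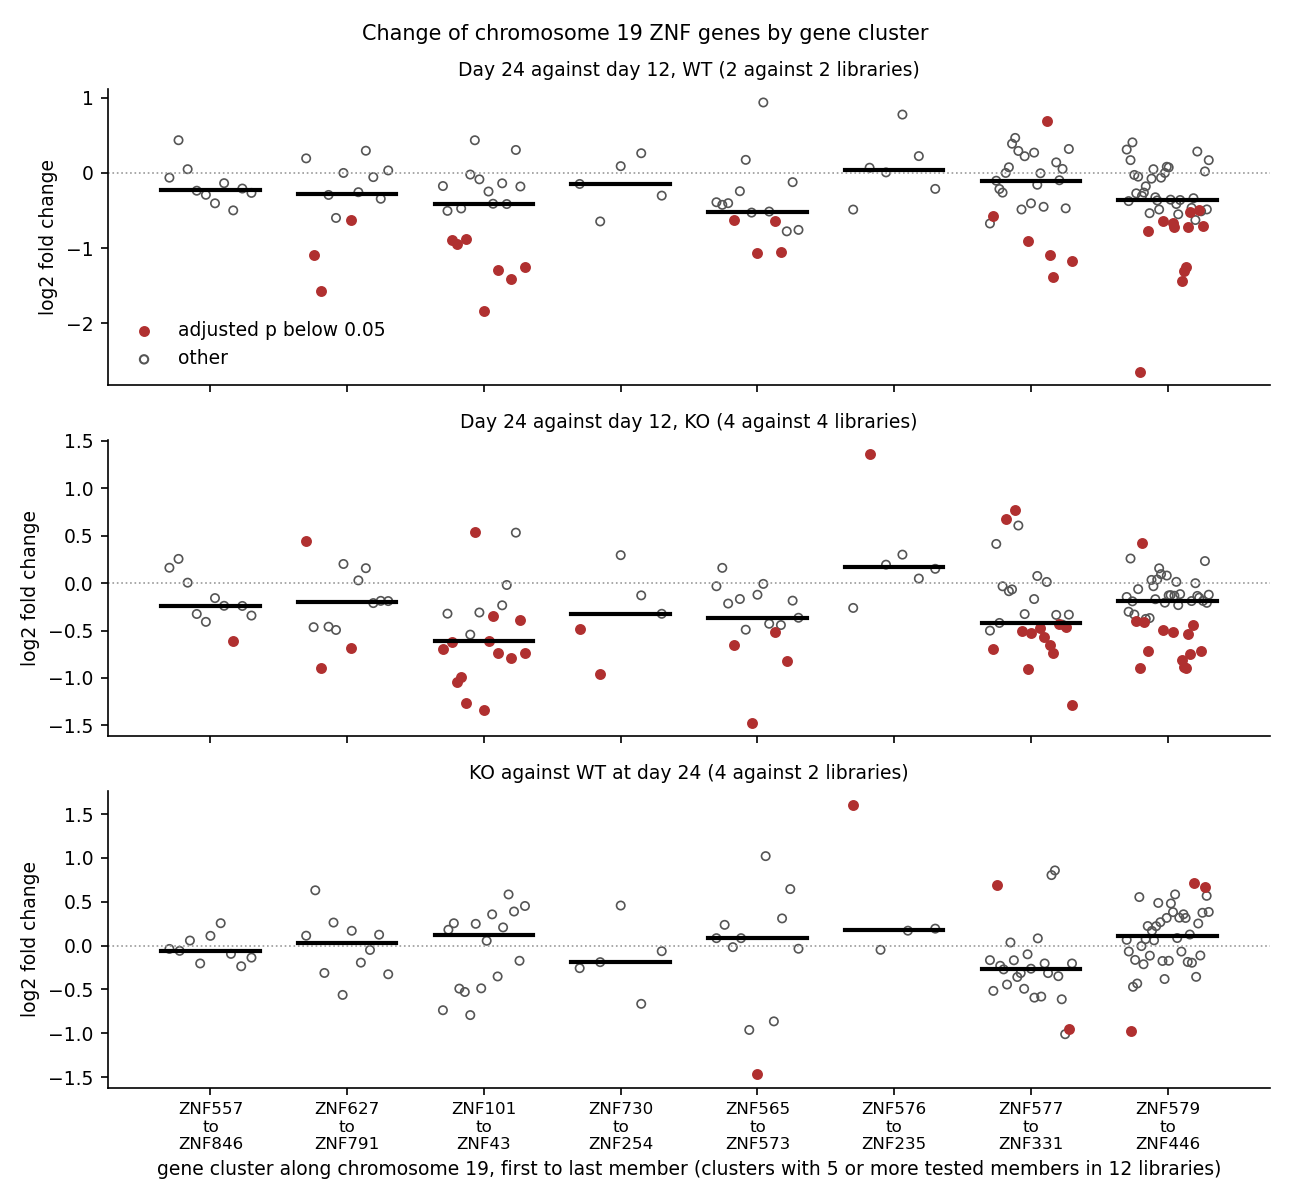
Log2 fold change (vertical axis) of each chromosome 19 ZNF gene tested, grouped by gene cluster in chromosomal order (horizontal axis), for the day change in WT and in KO and for KO against WT at day 24. Filled points passed adjusted *p* below 0.05, and bars are cluster medians, which in KO run from -0.61 for *ZNF101* to *ZNF43* to 0.17 for *ZNF576* to *ZNF235*.

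Neighbouring genes were compared with all pairs of the genes tested, neighbours included, with no test. Between adjacent tested genes of a cluster the median difference in day change was 0.42 in WT and 0.36 in KO (132 pairs, absolute log2 difference), against 0.46 and 0.38 over all 10731 pairs. For KO against WT it was 0.17 against 0.21 at day 12 and 0.35 against 0.42 at day 24. By protein, genes with a KRAB-like run had median day changes of -0.30 in WT and -0.24 in KO (115 tested). Those without a run had -0.26 and -0.22 (32 tested), and may include KRAB genes that the pattern missed. The medians by number of fingers were -0.25 and -0.20 for up to 9 fingers (42 tested), -0.30 and -0.31 for 10 to 15 (73 tested) and -0.39 and -0.38 for 16 or more (32 tested). Genes with a CCAATCA box in a promoter window had -0.25 in WT and -0.40 in KO (40 tested), those with a window but no box -0.26 and -0.19 (91 tested). Among the 117 genes of which under 5% of 100-base windows occurred elsewhere, the medians were -0.27 and -0.32.

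The second question was whether the c-JUN KO clones differed from WT at the same day. At day 12 no zinc finger gene of chromosome 19 was called, higher or lower, among 138 tested, where 0.0225% and 0.0675% of all 8885 genes were called by limma. An unadjusted limma *p* below 0.05 was found for 8 of the 138, a smaller share than the 980 of all 8885 genes. The median difference was -0.08, with 86 lower and 52 higher, and 132 of the 138 lay within 0.5 on the log2 scale. Without WT replicate 1 the median was 0.04, so that its sign rested on that library. The 4 KO libraries were all below both WT libraries in 10 genes (8.34% of all genes tested) and all above in 2 (8.23%). The lowest *p* among the genes that were lower without overlap belonged to *ZNF788P*, at 27 and 22 in WT and 15 to 20 in KO, *ZNF616*, at 17 and 18 against 11 to 14, and *ZNF93* (log2 -0.50, -0.46 and -0.40, adjusted *p* = 0.295, 0.313 and 0.344). The 2 genes above without overlap were *ZNF446*, at 7 in both WT libraries and 10 to 19 in KO, and *ZNF548*, at 14 and 13 against 15 to 17 (adjusted *p* = 0.432 and 0.566). *ZNF446* passed the filter only through KO. No difference in these genes passed the test at day 12.

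At day 24 the zinc finger genes again showed no common shift, in a comparison where many other genes differed. The median difference of the 128 tested was -0.03, with 66 lower and 62 higher. Over all 164 genes without a filter the median was 0.04, with 81 lower. *ZNF536* and *ZNF428* were called higher in KO (4.22% of all 9289 genes tested were) and *ZNF850* was called lower (3.79% were). The 4 KO libraries were all above both WT libraries in 23 genes (22.2% of all genes) and all below in 25 (21.8%). By clone, the median difference from WT was 0.06 in KO#2 and -0.08 in KO#10. The ZNF genes on other chromosomes had a median of 0.20, with 98 of 143 higher, and 7 called higher and 1 lower.

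*ZNF536*, a gene of the nervous system that restrains neuronal differentiation in cell culture, stood alone on the chromosome, outside the clusters. It scored 4 and 3 in WT at day 24 against 17 and 22 for KO#2 and 10 and 26 for KO#10. At day 12 it scored 3 in both WT libraries and 4 to 6 in KO. The KO libraries of day 24 were thus above every other library. Its score reached 10 in these libraries alone, so it passed the filter only through the group where it was high. With no filter on low values it was also called. The difference from WT was 2.07 (SE 0.359, limma adjusted *p* = 0.0223), and the rise with day in KO was 1.65 (SE 0.256, adjusted *p* = 0.000567) against 0.16 in WT (adjusted *p* = 0.768). *ZNF428*, a small gene with 1 finger found in its reading frame, scored 38 and 23 in WT at day 24, 95 and 107 for KO#2 and 62 and 114 for KO#10, against 24 to 38 in all libraries of day 12. The difference from WT was 1.61 (SE 0.294, adjusted *p* = 0.0236), and the rise with day in KO 1.37 (SE 0.206, adjusted *p* = 0.000495). The gene *SRRM5* overlaps it on the opposite strand. KO#10 replicate 1, with the lowest score of both genes among the KO libraries of day 24, also had the lowest neuronal sum of the 4 (377, where the others had 1364 to 1990 and no other library of the series over 358), and the part of neurons was not tested. Without it the differences from WT were 2.32 and 1.79 (limma adjusted *p* = 0.00395 and 0.00635).

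*ZNF850* scored 12 and 16 in WT at day 24, 6 and 4 in KO#2 and 3 and 5 in KO#10, without overlap (log2 -1.47, SE 0.311, adjusted *p* = 0.0313). At day 24 it reached a score of 10 in WT alone, so it passed the filter only through the group where it was high. With no filter on low values it was also called. With a correction for level the difference was -0.95 and was no longer called (adjusted *p* = 0.0862). *ZNF567* overlaps *ZNF850* on the opposite strand and was also lower in KO without overlap of scores (log2 -0.96, limma adjusted *p* = 0.0517), though not called. *ZNF567* likewise passed the filter only through WT. Another 5 genes passed adjusted *p* below 0.05 with less than a 2-fold difference. *ZNF432* scored 12 and 9 in WT and 15 to 19 in KO, *ZNF606* 17 and 13 against 21 to 28, and *ZNF584* 7 and 8 against 11 to 14 (log2 0.69, 0.72 and 0.67, adjusted *p* = 0.0413, 0.0419 and 0.0461). *ZNF581* scored 44 and 51 in WT and 20 to 29 in KO, and *ZNF761* 13 and 15 against 6 and 7 (log2 -0.98 and -0.95, adjusted *p* = 0.0227 and 0.027). Of these, *ZNF761* passed the filter only through WT and *ZNF584* only through KO, in each case the group where it was high. *ZNF584* and *ZNF606* were chosen after their values were seen. Leaving out either WT library, either KO#2 library or KO#10 replicate 2 left none called of the 117 to 120 zinc finger genes then tested, while the differences stayed between 1.89 and 2.23 for *ZNF536* and between 1.26 and 1.96 for *ZNF428*. Without either WT library *ZNF850* and *ZNF761* no longer passed the filter, so they were not tested there and their missing call is not a failed test. Without KO#10 replicate 1 there were 3 called higher and 3 lower. Over all genes the same omissions left between 2 and 263 calls, and 1346, where the full comparison gave 744.

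By position, the *ZNF577* to *ZNF331* cluster had a median of -0.27 for KO against WT at day 24, with 23 of its 28 values below 0, and of -0.15 at day 12, with 20 below 0. None of its 25 genes tested at day 24 was called, and by adjusted *p* alone 1 was lower (*ZNF761*) and 1 higher (*ZNF432*). The cluster itself was not tested. In the *ZNF579* to *ZNF446* cluster the day 24 median was 0.15, with 30 of 48 higher. The *ZNF101* to *ZNF43* cluster had 0.10, with 11 of 20 higher, and within it *ZNF93* and *ZNF90* were lower in all 4 KO libraries while *ZNF43* was higher (adjusted *p* = 0.119, 0.068 and 0.131).

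The third question was whether the change from day 12 to day 24 differed between KO and WT. None of the 147 genes was called in either direction, where 0.452% of all genes tested were called higher by limma and 0.854% lower. An unadjusted limma *p* below 0.05 was found for 18 of the 147, a smaller share than the 2136 of all 9952 genes tested. The median was 0.08, and it ran from 0.01 without WT day 24 replicate 1 or WT day 12 replicate 1 to 0.16 without WT day 12 replicate 2. The genes with the lowest *p* were *ZNF471*, *ZNF428* and *ZNF536* on the side of a higher value in KO, a smaller fall for *ZNF471* and a rise for the other two (log2 1.75, 1.30 and 1.49, adjusted *p* = 0.053, 0.0785 and 0.0921). On the other side they were *ZNF761*, *ZNF850* and *ZNF701* (log2 -0.65, -0.95 and -0.55, adjusted *p* = 0.127, 0.151 and 0.181). Without KO#10 day 24 replicate 1, *ZNF471*, *ZNF428* and *ZNF536* were all called (limma adjusted *p* = 0.00575, 0.00866 and 0.00739). In that run calls rose over all genes too, to 916 of 9896 tested, against 130 of 9952 with every library.

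Genes through which KRAB proteins act were measured beside them, together with *ZKSCAN1*, itself a zinc finger gene. All 24 of these partner genes were listed and tested. In WT 21 were lower at day 24 and 4 called lower (7.94% of all genes tested), with none called higher. In KO 13 were lower, 1 called lower (5.59% of all genes tested) and 1 called higher (5.89%). *TRIM28*, the scaffold that KRAB domains bind, scored 200 and 290 in WT at day 12 and 128 and 178 at day 24, and 167 to 250 and 134 to 154 in KO. Its change was -0.67 in WT (SE 0.232, adjusted *p* = 0.0465) and -0.49 in KO (SE 0.164, adjusted *p* = 0.0335), and the days did not overlap in either genotype. *SETDB1* scored 31 to 43 at day 12 and 28 to 35 at day 24, and neither change passed the test (log2 -0.14 and -0.22, adjusted *p* = 0.524 and 0.141). The 4 partners called lower in WT were *ATRX*, *CBX5*, *ATF7IP* and *DNMT1* (log2 -1.89, -1.78, -1.29 and -1.11), a chromatin remodeller, a heterochromatin protein, a cofactor of SETDB1 and the maintenance DNA methyltransferase. In KO *DNMT3B*, a DNA methyltransferase of early embryonic cells, was called lower with day (log2 -1.28) and *CHD3*, a remodeller of the NuRD complex, higher (1.90). At day 24 *CHD3* and *CBX5* were called higher in KO than in WT (log2 1.07 and 1.01) and *DNMT3B* lower (-2.23). *DNMT3B*, which is also on the pluripotency list, was already called lower in KO at day 12 (log2 -1.52, limma adjusted *p* = 0.0389), and the rise of *CHD3* with day was larger in KO than in WT (log2 1.13, adjusted *p* = 0.0489).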

How the data were processed

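Cerebral organoids of WT, KO#2 and KO#10 at day 12 and day 24 were measured by rRNA-depleted total RNA-seq, 2 libraries each. The authors deposited 1 table per library of whole-number normalized scores; the processing notes name bcl2fastq, Bowtie2 and RSEM. They give the build as mm10, although the gene identifiers are human, and all 164 locations overlap those of the same gene in GENCODE 29 (74 with the same interval). The normalization and the read depth are not given in the sources used here, and the scores share nearly the same distribution in every library, so changes are relative to the other genes. Groups were taken from the labels. Whether the replicates were separate cultures is not given, so *p* values measure only the spread between these libraries.

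Scores were tested as log2(score + 1) with limma 3.58.1 (R 4.3.3, variance trend), within each day for KO against WT and in 1 fit of 12 libraries for the rest. Genes needed a score of 10 in 2 libraries, leaving 128 to 147 of the 164. Some genes passed only through the group where their scores were high. *p* values were adjusted by Benjamini-Hochberg over all genes tested. Scripts were tested on simulated data. The genes and lists were chosen with earlier results of these data known. Named genes were, for each test, the called ones (up to 8 per direction by size of change) or, below 3, the 3 of lowest *p* without overlap of groups (no overlap rule for the difference between day changes), with the 5 highest-scoring and a list of genes of known role, of which *ZNF350* and *ZNF534* were not analysed here. Motifs were searched on both strands and windows aligned globally (Biopython 1.88). Fingers and KRAB-like runs were found by pattern in the longest open reading frame of GENCODE 29 transcripts. Replicate numbers deviated together at day 12 (correlation across genes 0.376 to 0.556 between lines, 9952 genes), where every pair exceeded 0.1, and not in every pair at day 24 (-0.09 to 0.328).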

Additional observations from a re-analysis of the deposited data

Results flagged for a closer look

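Among 37 named genes the 4 KO libraries of each day were checked for a score far from the other 3 (74 groups, of which chance marks about 1 in 20). Of these 10 were marked, and 9 hold 3 equal scores, so that any other score counts as apart. At day 12 the single score was 8 for *ZNF761* (others 9), 19 for *ZNF446* (others 10), 13 for *ZNF701* (others 11) and 33 for *ZNF91* (others 40). At day 24 it was 6 for *ZNF761* (others 7), 10 for *ZNF446* (others 11), 8 for *ZNF788P* (others 11), 31 for *ZNF358* (others 28), 17 for *ZNF587B* (others 11 and 12) and 8 for *ZNF568* (others 6). KO#2 replicate 1 held 6 of the 10, among them the 19 of *ZNF446*. *ZNF446* was above WT at day 12 by 0.68 (log2), and by 0.46 without that library; neither passed the test (limma adjusted *p* = 0.432 and 0.532).

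*ZNF761* and *ZNF701* were higher at day 24 in both WT libraries and lower in all 4 KO libraries than at day 12. The differences between the day changes were -0.65 and -0.55 (log2) and did not pass the test (limma adjusted *p* = 0.127 and 0.181).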

How the results depend on the processing

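Counts below are of chromosome 19 zinc finger genes called, and no direction of a named gene turned. For KO against WT at day 24 (2 higher, 1 lower), 4 were higher and 2 lower with a minimum score of 5, 5 and 2 with no filter on low values, and 4 and 2 with the 12 libraries in 1 fit. The count higher was 4 after a correction for level. The count lower was 3 with a pseudocount of 0.1, 3 after a correction for transcript length, and 2 after one for GC content or without the variance trend. Leaving out 1 library gave 0 to 3 higher and 0 to 3 lower, where a lone WT library is assumed to vary like the others. At day 12 none was called under any alternative. For the day change in WT (16 lower), 8 were lower with a pseudocount of 5, leaving out 1 library gave 8 to 15, and 1 was higher after a correction for gene span or transcript length. For the day change in KO (5 lower), 3 were lower with a pseudocount of 5, and leaving out 1 library gave 4 to 10, with 10 without KO#2 day 24 replicate 1 and 8 without KO#10 day 12 replicate 2. For the difference between the day changes, 1 was called higher (*ZNF471*) with a minimum score of 5, no filter, a pseudocount of 0.1, a correction for level or GC content, no variance trend, or the replicate number as a block, and leaving out 1 library gave 0 to 3. The block changed no other call. The median day changes stayed below 0 throughout, from -0.39 to -0.23 in WT and -0.28 to -0.23 in KO without 1 library. With gaps of 2 Mb between clusters the lowest cluster median was -0.42 in WT and -0.51 in KO. Correcting for transcript length or GC was chosen after seeing the data. The causes of these shifts were not tested. Scores are small whole numbers of unknown depth, which limits the genes that scored below 10.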
